A study of Mus musculus with 14 samples.

Results

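Stretches of the mouse genome that stayed partly methylated before, during and after reprogramming are described here. The autosomes were cut into 1000-bp tiles, and a tile was measured where each of 10 bisulfite libraries covered at least 3 cytosine positions, a position being one cytosine of a CpG on one strand. A measured tile was a member where its methylation level, the percent of reads called methylated over all its positions, lay between 30 and 70% in every library. Of 110555 measured tiles 3268 were members (2.96%). Of these, 345 had 10 or more positions in every library and are called dense, and the other 2923 are called sparse. Dense members made up 1.21% of the 28554 dense tiles and sparse members 3.56% of the sparse ones. The levels of the members chose them, so the levels and any comparison made with them are given as a description. A fit per tile across all measured tiles, with limma on log2 ratios as its alternative, is the only kind of test given between clones. Counts of members from it are a description beside the share of all tiles.

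The study followed tail fibroblasts of mice labelled AID-null or wildtype through reprogramming, to compare the methylation of the genotypes before, during and after it. Each genotype had 1 library of untreated fibroblasts, 1 library of fibroblasts reprogrammed for 3 weeks as a bulk culture, and 3 libraries of reprogrammed clones. The labels give the clones as reprogrammed for 3 weeks and picked at 2 weeks. Reduced representation bisulfite sequencing (RRBS) reads CpG-rich fragments next to restriction sites and gave the methylation values, and RNA was sequenced in 1 library each of fibroblasts and 3-week cultures. The labels give neither the reprogramming factors, the AID allele, the strain, the age nor the number of animals, and a clone descends from few cells of one culture.

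Groups are named by their labels, and no check of the genotype is reported here. On the Y chromosome 506 to 648 positions were covered in RRBS libraries labelled AID-null and 27 to 48 in those labelled wildtype, so sex and genotype label cannot be told apart. The 10 markers of fibroblasts summed to 15151 FPKM in the AID-null and 3916 FPKM in the wildtype 3-week culture, against 92957 FPKM in AID-null and 84526 FPKM in wildtype fibroblasts. The 10 pluripotency genes summed to 6753 FPKM in the AID-null and 6985 FPKM in the wildtype 3-week culture, against 7.99 FPKM in AID-null and 4.53 FPKM in wildtype fibroblasts. The 16 macrophage genes summed to 1573 FPKM in the AID-null and 424 FPKM in the wildtype 3-week culture, against 3366 FPKM in AID-null and 1853 FPKM in wildtype fibroblasts, and 7 of them, Ptprc, Aif1 and the C1q genes included, were listed at 0 in the wildtype 3-week culture. The part of other cell types in the tile levels was not tested. AID-null clone 3 was the highest library in 174 of the 345 dense members, and results that it decides are also given without it.

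Methylation of CpG cytosines is copied at cell division, and most CpGs are either methylated in nearly all copies of a genome or in nearly none. Imprinted control regions are the textbook exception, since one parental allele is methylated and the other is not in every cell, which gives a level near the middle of the scale. At many other sites, intermediate levels come from cell mixtures or from methylation that is gained and lost from molecule to molecule. Imprints are known to be unstable when cells are reprogrammed to pluripotency.

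Promoters that tie these values to genes are shown first. The promoter sequences come from RefSeq (GRCm38.p6, 250 bases before to 50 bases after the start, printed 5′ to 3′ along the gene), and the CpGs that the RRBS reads measured are in capitals. The first 3 belong to Gm31399 (plus strand, chr11:114423382-114423681 in GRCm38.p6), Pnliprp2 (plus strand, chr19:58759473-58759772) and Slc6a9 (plus strand, chr4:117849100-117849399), whose windows stayed at 30 to 70% in all 10 libraries. The fourth is the promoter of the imprinted gene Meg3 (plus strand, chr12:109540746-109541045), which did the same. Plagl1 (plus strand, chr10:13090582-13090881), Igf2r (minus strand, chr17:12769657-12769956) and the most upstream placed Gnas promoter (plus strand, chr2:174284070-174284369) are imprinted promoters that were intermediate in fibroblasts and below 30% in reprogrammed libraries, all 8 of them for Igf2r and Gnas and 4 of 8 for Plagl1.
Gm31399: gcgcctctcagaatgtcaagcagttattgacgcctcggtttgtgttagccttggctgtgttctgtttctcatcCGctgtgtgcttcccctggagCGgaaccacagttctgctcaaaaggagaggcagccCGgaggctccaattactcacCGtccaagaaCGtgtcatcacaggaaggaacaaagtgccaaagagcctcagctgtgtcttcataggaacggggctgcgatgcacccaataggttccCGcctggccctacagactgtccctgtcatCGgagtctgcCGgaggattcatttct
Pnliprp2: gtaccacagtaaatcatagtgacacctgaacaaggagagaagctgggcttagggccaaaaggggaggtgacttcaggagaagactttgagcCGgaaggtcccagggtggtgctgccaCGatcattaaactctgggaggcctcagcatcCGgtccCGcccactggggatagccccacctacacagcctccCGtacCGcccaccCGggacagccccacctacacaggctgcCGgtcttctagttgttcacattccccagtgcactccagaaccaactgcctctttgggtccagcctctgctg
Slc6a9: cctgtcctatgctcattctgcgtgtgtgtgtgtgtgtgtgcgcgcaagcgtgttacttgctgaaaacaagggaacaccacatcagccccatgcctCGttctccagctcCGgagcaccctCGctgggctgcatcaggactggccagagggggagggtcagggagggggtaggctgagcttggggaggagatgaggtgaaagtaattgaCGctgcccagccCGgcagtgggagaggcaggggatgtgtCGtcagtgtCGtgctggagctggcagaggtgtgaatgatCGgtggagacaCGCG
Meg3: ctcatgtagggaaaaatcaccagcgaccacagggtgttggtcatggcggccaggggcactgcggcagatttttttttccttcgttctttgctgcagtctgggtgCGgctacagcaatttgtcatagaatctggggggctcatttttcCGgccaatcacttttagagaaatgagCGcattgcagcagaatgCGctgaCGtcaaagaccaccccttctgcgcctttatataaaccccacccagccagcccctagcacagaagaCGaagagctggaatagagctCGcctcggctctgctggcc
Plagl1: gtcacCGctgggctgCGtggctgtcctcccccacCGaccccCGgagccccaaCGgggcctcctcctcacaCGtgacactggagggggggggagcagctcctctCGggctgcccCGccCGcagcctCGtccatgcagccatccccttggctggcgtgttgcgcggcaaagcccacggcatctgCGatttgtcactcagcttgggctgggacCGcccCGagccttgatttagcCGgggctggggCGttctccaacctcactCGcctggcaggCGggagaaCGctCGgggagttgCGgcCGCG
Igf2r: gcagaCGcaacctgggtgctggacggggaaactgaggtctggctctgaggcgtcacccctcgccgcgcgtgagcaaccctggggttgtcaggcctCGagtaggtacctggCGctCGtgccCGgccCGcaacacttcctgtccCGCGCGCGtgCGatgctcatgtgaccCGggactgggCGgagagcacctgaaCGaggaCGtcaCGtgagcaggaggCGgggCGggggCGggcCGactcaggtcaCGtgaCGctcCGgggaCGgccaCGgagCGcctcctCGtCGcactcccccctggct
Gnas: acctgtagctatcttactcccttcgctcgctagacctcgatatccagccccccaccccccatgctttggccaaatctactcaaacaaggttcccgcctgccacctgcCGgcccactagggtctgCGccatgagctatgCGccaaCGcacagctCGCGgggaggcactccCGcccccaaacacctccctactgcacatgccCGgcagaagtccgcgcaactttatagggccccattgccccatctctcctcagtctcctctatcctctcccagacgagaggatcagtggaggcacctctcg

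In Pnliprp2 all 8 CpGs were measured, in Gm31399 8 of 13, in Slc6a9 10 of 14 and in Meg3 7 of 13, with 22 of 26 in Plagl1, 28 of 34 in Igf2r and 8 of 16 in the Gnas promoter. The motif TGCCGC, the core of the site bound by the imprint-protecting zinc finger protein ZFP57 when its CpG is methylated, was searched on both strands. It was found in 11.6% of 32851 RefSeq promoters. It was found in 0 of the 7 promoters whose windows were held, in the Meg3 promoter, and in 3 of the 7 imprinted promoters intermediate in fibroblasts, of which those of Plagl1 and Hymai overlap almost entirely and share reads. A match describes the letters in this window only.

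Within the range that defines them, the dense members moved with the library. Their mean level was 54.1 ± 10.6% in AID-null fibroblasts (SD over 345 tiles here and below), 50.3 ± 8.40% in the AID-null 3-week culture, and 49.5 ± 9.21%, 44.5 ± 8.52% and 60.4 ± 7.17% in AID-null clones 1 to 3. In the wildtype series it was 54.9 ± 10.4% in fibroblasts, 45.6 ± 7.53% at 3 weeks, and 49.2 ± 7.29%, 51.2 ± 8.41% and 51.9 ± 7.74% in clones 1 to 3. The AID-null clones thus spanned a wider range of means than the wildtype clones, with clone 3 above and clone 2 below all the others. AID-null clone 3 had the highest level in 50.4% of the tiles, and AID-null clone 2 the lowest in 111 (32.2%). The wildtype 3-week culture was lowest in 80 (23.2%). All dense tiles together averaged 19.9% in AID-null clone 3 and 14.5% in AID-null clone 2, against 16.5 to 17.7% in wildtype clones, so the same clones were highest and lowest there. The median dense member varied by 24.2 points between its lowest and highest library (11.0 to 39.7 points). Dense tiles with a mean of 30 to 70% over the libraries that left the range in at least 1 of them varied by a median of 46.2 points. The rule caps the variation of a member at 40 points, and these other tiles were picked for leaving the limits. The contrast therefore follows largely from the choice of tiles.

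**Figure D1:**
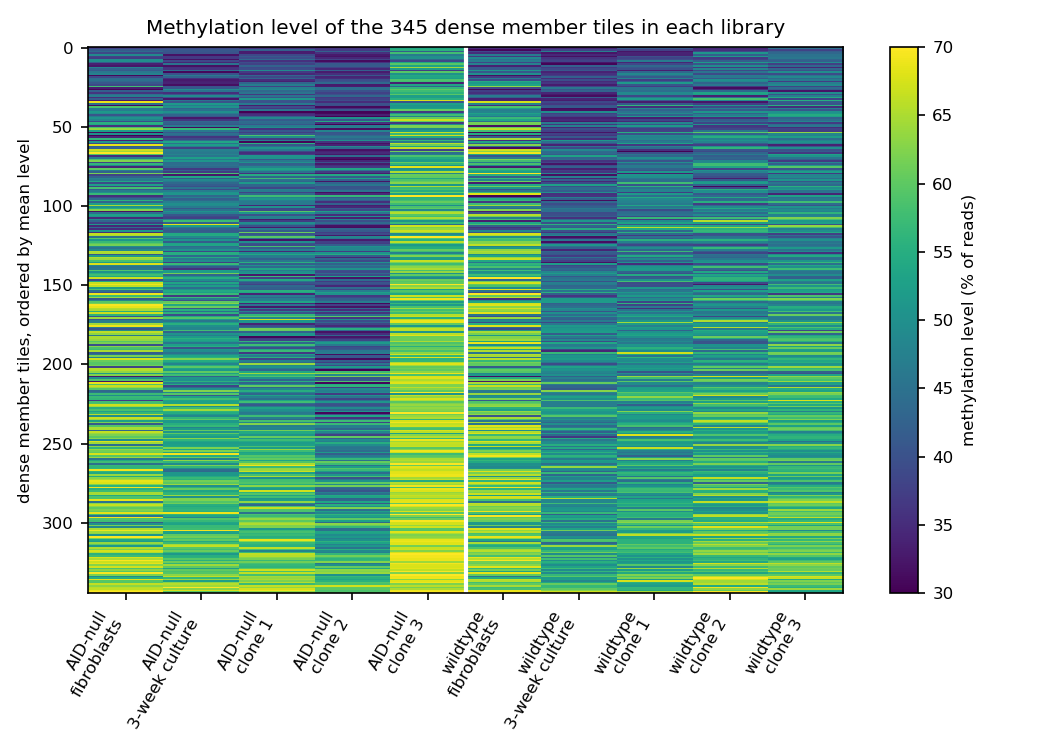
Each row is one of the 345 dense member tiles, ordered by its mean, and each column is a library, with AID-null libraries left of wildtype ones; colour gives the methylation level from 30 to 70% of reads. The column of AID-null clone 3 is the brightest, with a mean of 60.4%, and that of AID-null clone 2 is dark, with a mean of 44.5%.

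The tile nearest to a limit from inside, with 12 to 13 positions on chromosome 8, reached 69.99% in AID-null clone 3 and ranged down to 31.6% in the wildtype 3-week culture. The nearest tile outside, on chromosome 13, had 29.9997% in the wildtype 3-week culture and 37.1 to 61.7% in the other libraries. Dense members had 145 to 8241 reads in a library, so that the 95% Wilson interval of a tile's level reached at most 8.03 points to either side. This interval covers counting error only, and PCR copies are not independent molecules. Reads per position in dense members were 1.09 times the library's median (median over tiles) and at most 2.85 times. In 425 dense tiles exactly 1 library lay outside the range. It was AID-null clone 3 in 159 of them, above 70% in 158, and AID-null clone 2 in 87, below 30% in 86. It was fibroblasts labelled AID-null in 62 and fibroblasts labelled wildtype in 67, and no other library in more than 16.

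Most tiles that were intermediate in both fibroblast libraries left the range in at least 1 of the 8 reprogrammed libraries, although 60.9 to 68.0% were still in it in either 3-week culture. Of 1953 dense tiles at 30 to 70% in both fibroblast libraries, 1133 (58.0%) were also in the range in both 3-week cultures, and 345 (17.7%) in all 6 clones as well. Among all tiles the counts were 17016, 12120 (71.2%) and 3268 (19.2%). These 1953 tiles were chosen on fibroblasts alone, so their levels in the reprogrammed libraries were free to move. Below 30% at 3 weeks were 30.3% of them in the culture labelled AID-null and 38.9% in that labelled wildtype, while 1.64% and 0.205% were above 70%. In clones labelled AID-null 38.7%, 37.4% and 41.6% stayed in the range in clones 1 to 3, a mean of 39.2 ± 2.15%. In clones labelled wildtype 53.9%, 53.8% and 54.8% stayed, a mean of 54.2 ± 0.577% (SD, n = 3 each). The groups did not overlap, and the difference of -14.97 points was larger than the spread between clones. The share of all tiles in the range was not computed for each clone. The difference therefore has no background here and is not read as particular to these tiles. Among all 110555 measured tiles, 12750 lay in the range in all 3 AID-null clones and 29528 in all 3 wildtype clones. Such a joint count also falls where the 3 clones of a genotype differ from each other, so it is another measure. The 1953 tiles left the range in both directions. Below 30% were 46.8 ± 10.2% in AID-null clones and 38.9 ± 2.01% in wildtype clones, and above 70% were 14.0 ± 8.00% and 6.90 ± 1.61%. AID-null clone 3 had the fewest low tiles (35.6%) and the most high ones (22.8%), and overlapped the wildtype clones in the share below 30%. Held in all 3 clones of a genotype were 1819 dense tiles in AID-null clones and 4209 in wildtype clones, whatever their level in fibroblasts.

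**Figure D2:**
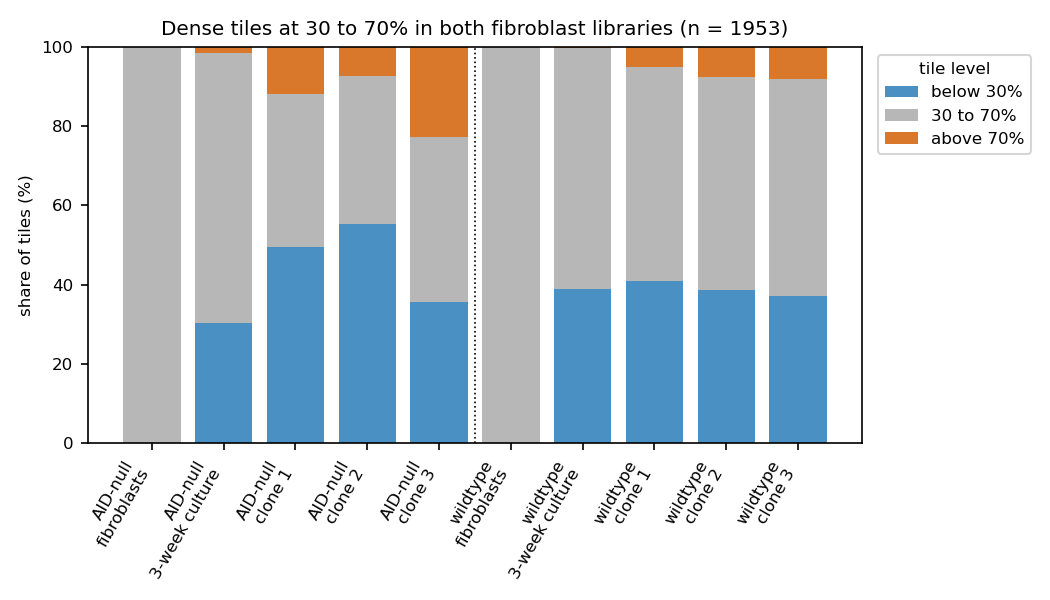
Bars give the share of the 1953 dense tiles at 30 to 70% in both fibroblast libraries that lay below, in or above that range in each library, AID-null left of wildtype; both fibroblast bars are 100% by choice. The grey share is 37.4 to 41.6% in the AID-null clones and 53.8 to 54.8% in the wildtype clones, and AID-null clone 3 has the largest share above 70%.

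The limits of 30 and 70% cap any difference between libraries at 40 points in members, so shares past a threshold are not comparable with those of other tiles. From fibroblasts to 3 weeks the median dense member differed by -4.75 points in the AID-null series and -10.7 points in the wildtype series, where the median was -5.44 and -15.7 points over all tiles and -0.091 and -0.089 points over all dense tiles. All dense tiles had a median level of only 1.23% in AID-null and 1.16% in wildtype fibroblasts, and 1.54% and 1.63% at 3 weeks. A typical one could hardly fall, so the medians over all dense tiles, here and below, are no like comparison. Of 3268 members 12 were at least 25 points higher and 43 lower in the AID-null 3-week culture than in AID-null fibroblasts, against 2.27% and 10.8% of all tiles. In the wildtype 3-week culture 4 were higher and 266 lower than in wildtype fibroblasts, against 2.22% and 31.6% of all tiles. Between genotypes, the 3-week culture labelled AID-null was above that labelled wildtype in 273 of 345 dense members, by a median of 5.05 points, where the median was 6.32 points over all tiles and 0.081 points over all dense tiles. Past 25 points, 20 members were higher and 1 lower there, against 2.29% and 0.0642% of all tiles. In fibroblasts the median difference between genotypes was -0.13 points over dense members, with 4 members higher and 5 lower past 25 points, against 0.369% and 0.581% of all tiles. The mean of the 3 clones was at least 25 points above the fibroblasts in 46 members and below in 46 in the AID-null series, against 6.52% and 16.6% of all tiles. In the wildtype series it was above in 27 and below in 88, against 5.49% and 21.7%. Each of these counts rests on 1 library per group or on 1 fibroblast library, so they carry no test.

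The 3 clones of each genotype allow a test per tile, a quasi-binomial fit to methylated and unmethylated reads with dispersion moderated by limma, with a call needing 25 points and a p under 0.05 after Benjamini-Hochberg adjustment. It called 0 members, against 0.000905% of all tiles higher and 0% lower in AID-null clones, which is 1 tile of 110555. The rule chose members on these clones, so their count is a description. At an unadjusted p under 0.05 stood 242 members (7.41%) and 15.5% of all tiles, and limma on log2 ratios called 0 members as well, with 96 members (2.94%) and 13.4% of all tiles at an unadjusted p under 0.05. Without AID-null clone 3 the fit called 6 members, 3 higher and 3 lower, against 0.204% of all tiles higher and 0.952% lower. The median dense member differed by 0.59 points between AID-null and wildtype clones and was higher in 182 of 345, but by -3.83 points, and higher in 107, without AID-null clone 3. Separate animals or cultures are not stated for the clones, so that these p-values reflect clone-to-clone spread, which may be technical.

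A tile level of 50% can be made of positions near 50% or of a mixture of high and low ones. In dense members 4421 positions were covered in all 10 libraries. Of these, 42.9% lay between 30 and 70% in AID-null fibroblasts, 66.0% in the AID-null 3-week culture, and 49.4%, 51.2% and 47.3% in AID-null clones 1 to 3. In the wildtype series 41.4% did so in fibroblasts, 74.0% at 3 weeks, and 64.4%, 58.5% and 62.6% in clones 1 to 3. Positions were therefore most alike in the 3-week cultures and most unlike in fibroblasts, and the median SD between positions of a tile was 17.7 points in the AID-null 3-week culture against 26.4 points in AID-null fibroblasts, and 15.9 points in the wildtype 3-week culture against 27.4 points in wildtype fibroblasts. Among clones the share averaged 49.3 ± 1.97% for AID-null and 61.8 ± 2.98% for wildtype (SD, n = 3 each), a difference of -12.5 points. The groups did not overlap, and no test is given, since the rule chose the tiles on the same clones. The share over all measured positions is not given, so this difference is not read as particular to members. Another measure is the SD of levels over all measured tiles, with 33.7, 31.6 and 34.5 points in AID-null clones. In wildtype clones that SD was 29.1, 30.1 and 29.8 points. Over dense members, whose levels the rule limits, the groups overlapped in it. There it was 9.21, 8.52 and 7.17 points in AID-null and 7.29, 8.41 and 7.74 points in wildtype clones. Positions above 80% took 17.4 ± 5.41% in AID-null and 9.03 ± 1.92% in wildtype clones. Positions below 20% took 13.5 ± 4.67% in AID-null and 10.8 ± 1.11% in wildtype clones. Here AID-null clone 3 had 8.26%, less than any wildtype clone (10.1 to 12.1%). The median SD between positions of a tile overlapped as well. It was 26.0, 25.4 and 21.8 points in AID-null clones 1 to 3 and 20.1, 22.6 and 20.5 points in wildtype clones.

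**Figure D3:**
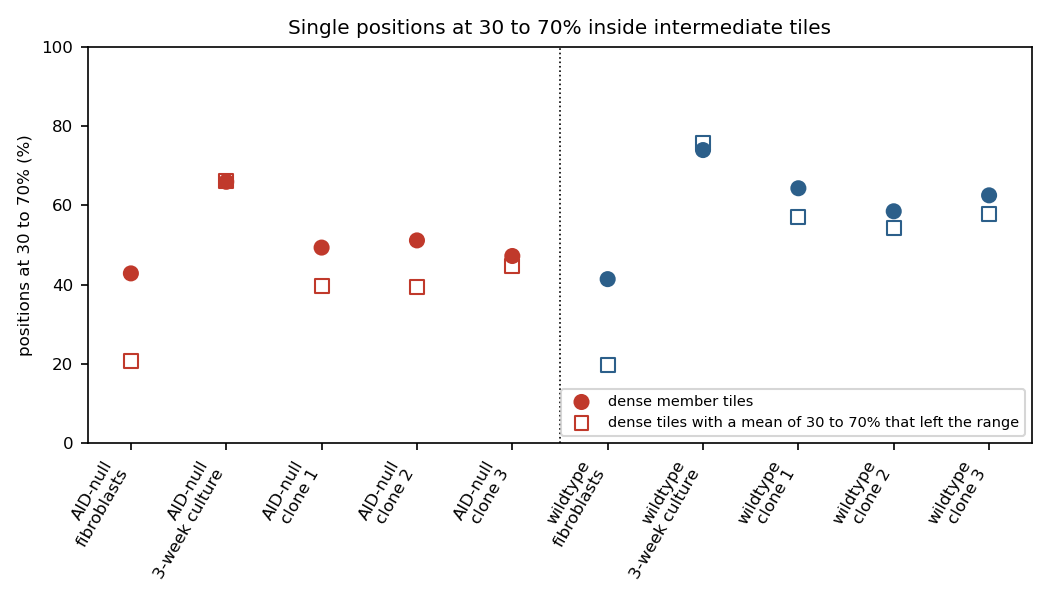
Points give the share of single positions at 30 to 70% in each library, filled circles in dense member tiles and open squares in dense tiles with a mean of 30 to 70% that left the range, AID-null in red left of wildtype in blue. In member tiles the AID-null clones sit at 47.3 to 51.2% and the wildtype clones at 58.5 to 64.4%, and the squares are lower in AID-null clones too.

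Intermediate tiles that were not held were also chosen on these libraries, by their mean. There the share averaged 41.3 ± 3.00% in AID-null and 56.5 ± 1.87% in wildtype clones, a difference of -15.1 points. In fibroblasts, 20.8% of positions in the tiles not held lay in the range in the library labelled AID-null and 19.7% in that labelled wildtype. Above 80% lay 55.6% and 57.2% of them. Only members had to be at 30 to 70% in each fibroblast library, so these shares are not compared with the members' shares. Averaged over the 10 libraries, 21 of 345 dense members had every position between 30 and 70%, 144 had at least 80% of them, and 64 had under 50%. On the same averages, split tiles, with at least 25% of positions under 20% and at least 25% over 80%, numbered 6. Split tiles were not counted in single libraries. There, 24.6% of positions in dense members lay above 80% in AID-null and 26.8% in wildtype fibroblasts, with 13.0% and 13.1% below 20%. In the 3-week cultures 6.40% and 2.01% lay above 80%, and 8.14% and 8.44% below 20%.

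Most members had no adjacent member tile, and a neighbour that was not measured could not count as one. They formed 3217 single tiles, 24 pairs of adjacent tiles and 1 run of 3. The run of 3 (chr8:122916001-122919000, mm9) lay between the placed promoters of 6430548M08Rik and of Gse1. Its dense tile ranged from 32.8 to 60.4%, the next from 49.7 to 67.0% and the third from 34.2 to 48.8% over the 10 libraries. Of 345 dense members 144 had a measured neighbouring tile, and of their 167 neighbours 108 (64.7%) had a mean of 30 to 70%, 18 were below 20% and 7 above 80%. Neighbours of dense intermediate tiles that were not held were between 30 and 70% in 59.6%, a similar share, and those of all dense tiles in 15.6%. The members' share of tiles differed little between chromosomes, from 2.57% on chromosome 3 to 3.48% on chromosome 5.

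Of the dense members with the most positions, 3 are given here with one of the steadiest. No gene annotation of the build mm9 was used here, so tiles are placed by the nearest promoters whose CpG spacing could be found in the data. A tile with at least 38 positions (chr14:60998001-60999000), between Mtmr6 and Spata13, had 44.3% in AID-null fibroblasts, 35.4% in the AID-null 3-week culture and 42.6%, 35.1% and 52.5% in AID-null clones, against 45.9%, 34.97%, 47.5%, 41.3% and 43.7% in the wildtype libraries in the same order. All 10 libraries lay within 17.5 points of each other. Another with at least 38 positions (chr7:25919001-25920000), 85.4 kb from the promoter of Dedd2, had 37.6%, 42.4%, 49.4%, 43.6% and 56.8% in the AID-null and 53.6%, 39.8%, 52.8%, 52.5% and 52.6% in the wildtype libraries. Here the fibroblast library labelled AID-null was the lowest of the 10. A tile 56.7 kb from the promoter of Unc5a, which encodes a netrin receptor (chr13:55107001-55108000, at least 32 positions), had 64.7%, 55.5%, 36.7%, 35.1% and 61.1% in AID-null and 62.7%, 42.9%, 45.4%, 54.0% and 58.3% in wildtype libraries, so AID-null clones 1 and 2 were low and clone 3 was not. Among the steadiest was a tile 12.1 kb from the promoter of Bcl11b, a transcription factor of T cells (chr12:109229001-109230000), which stayed between 47.2 and 59.6% in all 10 libraries, a range of 12.4 points.

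Few of the promoters that could be placed were held. A RefSeq promoter was placed on the data where all measured CpG sites in a 300-bp window matched the CpG spacing of its sequence, with at least 8 such sites and a single place on its chromosome. This placed 10751 of 15961 promoters with enough CpGs, and 62 of the same sequences written backwards (0.577% as many). The other promoters among the 32619 searched had too few CpGs to be placed, so CpG-poor promoters are not covered here. On autosomes 10300 placed promoters had a measured tile, and 10 of them (0.0971%, in 10 genes) reached into a member tile. Members made up 2.96% of all measured tiles and 1.21% of the dense ones. Tiles and promoters are different units, so these shares are set side by side as a description only. Of 9560 promoter windows measured in all libraries 9043 (94.6%) were below 10% in every library and 7 (0.0732%) were held at 30 to 70%. The median dense member lay 44135 bp from the nearest placed start and 2.65% lay within 1000 bp, against 36602 bp and 2.16% for dense intermediate tiles not held and 8264 bp and 38.8% for all dense tiles.

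The 7 held windows belonged to Pnliprp2, a pancreatic lipase-related protein, to Slc6a9, a glycine transporter, to Cbfa2t3, a transcriptional corepressor of blood cells, to Vmn2r29, a vomeronasal receptor, and to LOC108167929, Gm31399 and E330017L17Rik. Of these 7, 3 (Pnliprp2, LOC108167929 and Gm31399) also reached into a member tile. The Pnliprp2 window (chr19:58833963-58834262, mm9) had 45.7% in AID-null fibroblasts, 30.9% at 3 weeks and 37.0%, 33.0% and 59.4% in AID-null clones 1 to 3, against 41.1%, 33.9%, 43.4%, 45.4% and 49.5% in the wildtype libraries. The Slc6a9 window (chr4:117521705-117522004, mm9) had 45.9%, 46.0%, 33.1%, 31.3% and 58.6% in AID-null and 52.5%, 37.4%, 49.6%, 58.0% and 56.3% in wildtype libraries. The Gm31399 window (chr11:114284696-114284995, mm9) had 61.7%, 46.9%, 41.8%, 41.1% and 49.8% in AID-null and 61.3%, 43.8%, 33.2%, 62.7% and 54.7% in wildtype libraries. AID-null clone 3 was the highest library in 6 of the 7 windows, Gm31399 being the exception. Vmn2r29 belongs to a large family of similar genes whose reads may be shared, so its window is uncertain.

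Among the other genes with a member tile, Lhcgr, the receptor of luteinising hormone, had its start in a tile with at least 27 positions (chr17:89191001-89192000, mm9). That tile had 32.4%, 31.8%, 42.8%, 41.4% and 53.2% in AID-null and 33.7%, 42.4%, 43.4%, 49.5% and 43.3% in wildtype libraries, so it was higher in all 6 clones than in either fibroblast library. The promoter window itself was lower, at 23.0 to 44.8%. Abca4, a retinal transporter, and Myo1h, a myosin, had windows inside a dense member tile that themselves left the range, with Abca4 at 79.3% in both fibroblast libraries and Myo1h at 27.7 to 51.2% over all libraries. The window of Trap1, a mitochondrial chaperone, was not measured in every library and was listed at 0 where it was covered, so only its tile was intermediate. The Gm36531 window had 56.3 to 92.75%, with as few as 1 position, the Gm833 window 34.25 to 80.7% and the Gm32767 window 24.6 to 57.4%.

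No imprinted promoter was held under the main placement. Of a list of 76 imprinted genes 32 had a placed promoter, and 29 of these had a window measured in all 10 libraries, in 33 windows. In 22 windows the level was below 10% in every library. In 7, those of Plagl1, Hymai, Zrsr1, Commd1, Igf2r, Mcts2 and Gnas, both fibroblast libraries were between 30 and 70%. None of the 7 was held, and none reached into a member tile. Of all 59 promoter windows intermediate in both fibroblast libraries 7 were held (11.9%), and 33 were below 30% in all 6 clones.

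Igf2r encodes the receptor that clears insulin-like growth factor 2. Its window (chr17:12962523-12962822, mm9) had 43.6% in AID-null fibroblasts, 11.8% at 3 weeks and 0.965%, 0.577% and 2.31% in AID-null clones, against 31.4%, 8.49%, 3.19%, 2.95% and 3.72% in the wildtype libraries. Every clone lay far below both fibroblast libraries. Mcts2, a retrogene imprinted within H13, had 44.0%, 19.2%, 22.6%, 17.3% and 16.4% in AID-null and 45.8%, 20.6%, 12.4%, 6.09% and 17.6% in wildtype libraries. Plagl1, a zinc finger gene of the fetal growth network (chr10:12810388-12810687, mm9), had a window that nearly coincides with that of Hymai. Plagl1 had 41.5%, 32.6%, 34.8%, 35.6% and 14.9% in AID-null and 40.2%, 30.4%, 22.4%, 16.1% and 27.2% in wildtype libraries, so only AID-null clones 1 and 2 among the clones stayed above 30%. Zrsr1 had 40.4%, 21.0%, 43.3%, 25.5% and 20.5% in AID-null and 47.8%, 26.1%, 24.7%, 34.9% and 28.1% in wildtype libraries, with a single clone of each genotype above 30%.

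**Figure D4:**
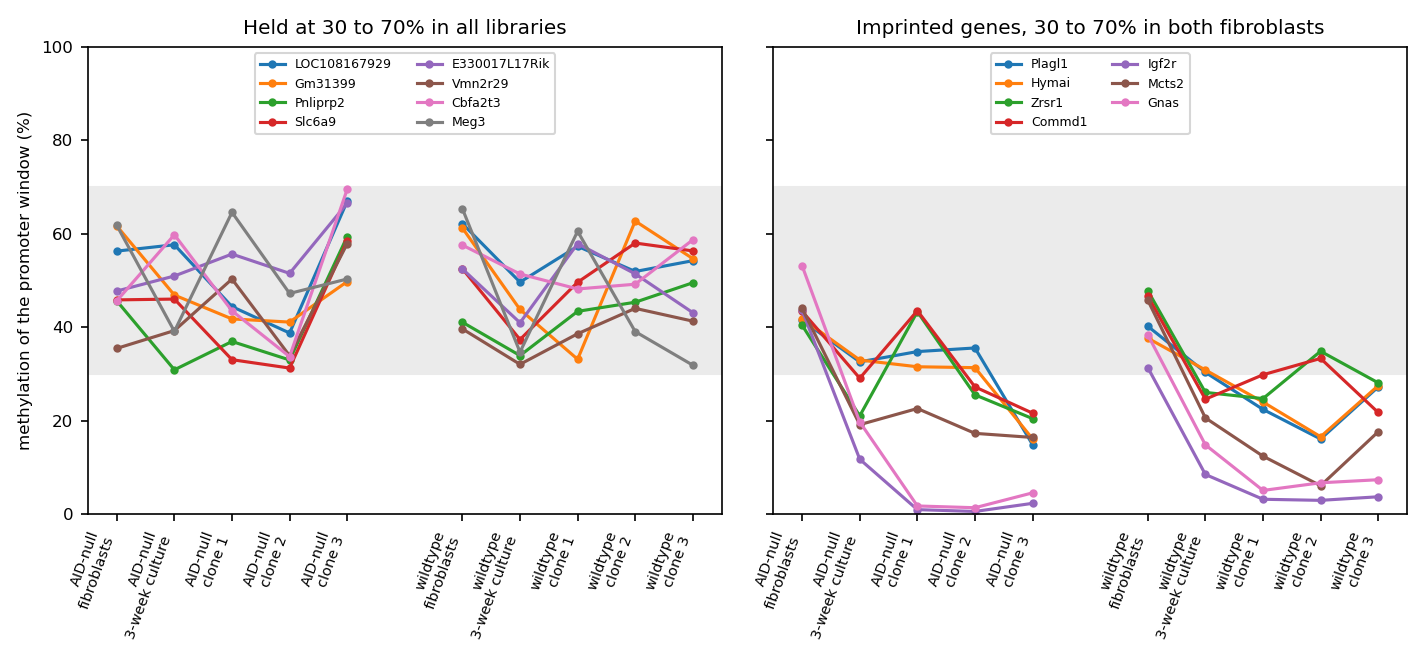
Lines give the methylation of promoter windows in each library, AID-null left of wildtype in each panel, with the range from 30 to 70% in grey. The left panel holds the 7 held windows and Meg3, whose promoter was placed by the search between flanking promoters; in the right panel the 7 imprinted windows start in the grey range, and Igf2r and Gnas are below 10% in all 6 clones.

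Of the dense members, 3 lay between placed promoters of listed imprinted genes, 1 of them between promoters of Gnas. Gnas encodes the stimulatory G protein subunit, and its locus has several alternative promoters whose methylation differs between the parental alleles. The tile (chr2:174123001-174124000, mm9, at least 32 positions) lay 13.7 kb downstream of the most upstream placed Gnas promoter and 29.8 kb before the next. It had 55.4% in AID-null fibroblasts, 42.3% at 3 weeks and 43.9%, 35.8% and 36.7% in AID-null clones, against 61.6%, 46.5%, 48.4%, 38.4% and 37.0% in the wildtype libraries. All clones were lower than both fibroblast libraries and still above 30%. Of 16 measured tiles across the locus this was the only member. The 5 tiles at the upstream promoter had 43.8 to 60.2% in AID-null and 28.4 to 64.9% in wildtype fibroblasts, 19.7 to 27.7% and 11.5 to 17.3% at 3 weeks, and 0 to 11.0% in AID-null and 1.87 to 9.32% in wildtype clones. The 3 tiles at the next placed promoters downstream had 42.0 to 44.3% in AID-null and 40.3 to 47.9% in wildtype fibroblasts, 17.9 to 23.8% and 18.8 to 34.6% at 3 weeks, and 3.17 to 22.2% in AID-null and 12.6 to 40.9% in wildtype clones. The 5 other tiles of the middle stretch had 45.6 to 50.2% in AID-null and 41.5 to 57.7% in wildtype fibroblasts, 28.0 to 40.6% and 26.8 to 57.4% at 3 weeks, and 20.5 to 51.4% in AID-null and 22.0 to 44.4% in wildtype clones, and none stayed at 30% or above in all 6 clones. The remaining tiles of the locus were never intermediate, with 73.2 to 95.8% in one and 0.0625 to 0.411% in another. The other members lay on chromosome 7, far from the placed promoters that flank them. One (chr7:150081001-150082000, mm9), 236791 bp from Igf2 and 73669 bp from Ascl2, had 38.4%, 39.7%, 42.5%, 40.4% and 65.01% in AID-null and 61.1%, 39.7%, 55.4%, 31.0% and 55.2% in wildtype libraries. Another (chr7:150566001-150567000, mm9), 311227 bp from Tssc4 and 121929 bp from Phlda2, had 56.3%, 43.7%, 66.8%, 51.9% and 68.0% in AID-null and 67.9%, 43.0%, 52.5%, 57.0% and 55.1% in wildtype libraries. AID-null clone 3 was the highest library in both.

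**Figure D5:**
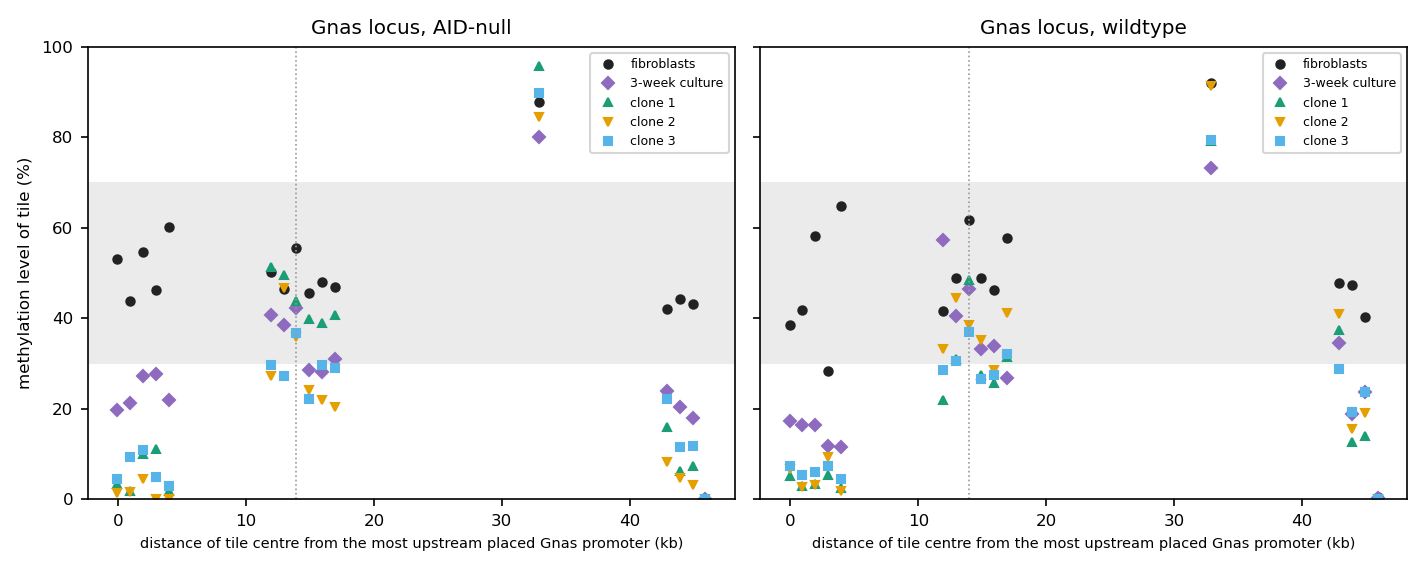
Points give the methylation level of each of 16 measured tiles of the Gnas locus, AID-null in the left panel and wildtype in the right, against the distance of the tile's centre in kb from the most upstream placed Gnas promoter, with the range from 30 to 70% in grey and the member tile at the dotted line. Clones lie at 0 to 11.0% at the upstream promoter in both genotypes and at 35.8 to 48.4% in the member tile.

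Meg3, a maternally expressed noncoding RNA of the Dlk1-Dio3 cluster, appeared when promoters were also searched between the placed promoters that flank them, with at least 4 sites. This search was added after the data had been seen, and it placed 96 backward sequences beside 2854 promoters (3.36% as many). The Meg3 window (chr12:110778956-110779255, mm9) had 61.8% in AID-null fibroblasts, 39.1% at 3 weeks and 64.6%, 47.2% and 50.3% in AID-null clones, against 65.4%, 34.7%, 60.6%, 39.1% and 31.9% in the wildtype libraries. It was the only one of 6 imprinted windows measured by this search to be held, and it reached into a sparse member tile with at least 9 positions (chr12:110779001-110780000). That tile had 47.1%, 36.7%, 60.3%, 54.7% and 51.6% in AID-null and 60.4%, 36.7%, 59.6%, 61.4% and 40.8% in wildtype libraries. Both 3-week cultures were the lowest libraries of the tile in their genotype. Nnat, an imprinted gene of neurons placed by the same search, was not held and ranged from 11.7 to 73.8%.

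RNA of the genes with a held or member-tile promoter was low in most cases. Of the 10 genes with a member tile 6 were in the RNA tables. Lhcgr and Gm833 were listed at 0 in all 4 libraries. Trap1 had 254.8 FPKM at 3 weeks and 157.7 FPKM in fibroblasts of the AID-null series, and 307.2 and 160.2 FPKM in the wildtype series. Abca4 had 0.64 to 1.36 FPKM. Myo1h had 1.65 FPKM at 3 weeks and 2.25 FPKM in fibroblasts of the AID-null series, and 1.56 and 4.6 FPKM in the wildtype series. On the log2(FPKM + 1) scale Myo1h was the one gene past a 2-fold difference, with -1.13 in the wildtype 3-week culture against wildtype fibroblasts, among 3 genes with at least 1 FPKM, where 27% of all genes were higher and 17.7% lower. In the AID-null 3-week culture against AID-null fibroblasts 0 of 3 passed, where 21.3% of all genes were higher and 17.6% lower. Between genotypes 0 of 3 passed in fibroblasts (4.26% of all genes higher, 1.34% lower) and 0 of 3 at 3 weeks (9.76% higher, 11.5% lower). Of the held windows' genes Slc6a9 had 11.9 FPKM at 3 weeks and 106.0 FPKM in fibroblasts of the AID-null series, and 14.7 and 101.2 FPKM in the wildtype series. Its window, at 31.3 to 58.6%, was chosen for staying in the range, so nothing is read from its level beside this RNA difference. Pnliprp2, Cbfa2t3 and Vmn2r29, the other genes of held windows with RNA values, had 0 to 0.96 FPKM. Meg3 had 242.3 FPKM at 3 weeks and 272.9 FPKM in fibroblasts of the AID-null series, and 97.6 and 318.6 FPKM in the wildtype series. RNA came from 1 library per group, so these differences have no replicate check. In bulk libraries, fewer cells of a type and less RNA per cell cannot be told apart.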

How the data were processed

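DNA methylation was measured in 10 RRBS libraries and RNA in 4. Per the submitters' processing notes, the tools named are Bismark, methylKit, TopHat and Cufflinks, and the build is mm9; versions and filters are not given in the sources used here. Per the file headers, the deposited RRBS files list coverage as a read count for each cytosine and strand, and the percent of methylated and unmethylated reads; the lowest deposited coverage is 10. The authors' RNA tables give FPKM per gene, so RNA depth is unknown. Autosomal tiles were formed from coverage-weighted percents. Over autosomes and X, libraries covered 1659159 to 2153110 positions at a median coverage of 82 to 125.

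Clones were compared by a quasi-binomial fit per tile with dispersion moderated in limma 3.58.1 (R 4.3.3), with Benjamini-Hochberg adjustment over all tiles. On simulated tiles of low level shifted by 35 points, the fit called 100% at a read variance inflated 3 times and 91% at 20 times. In the clones the dispersion before moderation averaged 27.6 (median 18.8). Smaller shifts were not simulated, so the simulation says little about members. Shares of positions are given without the permutation test first planned for them, since the rule chose the tiles on the same clones. RNA was compared as log2(FPKM + 1) for genes that reached 1 FPKM in one library of the pair. Python 3.11.15 with numpy 2.4.6, pandas 2.3.3 and scipy 1.17.1 was used.

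Tiles named were the 10 with the most positions and the 5 with the smallest range, tiles in runs, tiles in imprinted loci and all placed promoters with a member tile, of which the text gives a selection. Members, gene lists and tests were chosen with earlier results of these data known. One RNA result is not reported here. Promoters of chromosome 18 and a genome of build mm9 were not used here. Alternatives were other limits, position and coverage minimums, weighting, tile grid, libraries left out, tests, promoter placements and RNA scalings.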

Additional observations from a re-analysis of the deposited data

How the results depend on the processing

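Counts of members follow the limits. Limits of 35 and 65% left 925 members, 87 of them dense, and limits of 25 and 75% gave 7286 and 816, while a minimum of 5 positions left 1880. With positions weighted equally 229 of the 345 dense members (66.4%) remained members, and with the grid shifted by 500 bases 237 (68.7%) had a member tile. Leaving out each clone gave 3372 to 4745 members and 351 to 507 dense ones, most without AID-null clone 3. The difference in the share of positions at 30 to 70% between clones was -14.2 to -11.3 points with each clone left out, -13.2 at a coverage of at least 20 and -14.2 at one of at least 50, which was chosen after seeing the data. Members called between clones numbered 0 to 6 with each clone left out, 6 without AID-null clone 3, where 1052 of all tiles were called lower and 226 higher. Clone numbers were used as a replicate block, which called 0 members; same-numbered clones of the genotypes correlated at -0.020 to 0.056 in their deviations, so the numbers do not pair them.

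At 20 points in place of 25, members differing numbered 199 for the AID-null 3-week culture and 660 for the wildtype one against fibroblasts, 42 between fibroblasts, 75 between 3-week cultures, and 304 and 343 for AID-null and wildtype clones against fibroblasts, against 20.6%, 45.4%, 2.19%, 7.25%, 29.4% and 37.2% of all tiles. With at least 5 positions they numbered 30, 145, 2, 8, 56 and 66 in the same order, against 11.8%, 28.9%, 0.311%, 1.11%, 21.5% and 24.1% of all such tiles. Genes with a promoter in a member tile numbered 1 with at least 12 sites and 21 with at least 6, where backward sequences placed 10.8% as many. With a pseudocount of 0.1, 1 gene, Myo1h, reached the 2-fold limit between fibroblasts, with 2.25 FPKM in those labelled AID-null and 4.6 FPKM in wildtype ones. The share of all genes was not counted at this pseudocount, so nothing is read from this gene. Of 82 alternative values over 15 results 61 stayed within the limits set for them. Tiles with few reads are the least certain: over all members a library had as few as 30 reads, for a Wilson interval reaching up to 16.4 points to either side.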

Other observations

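X-chromosome tiles were not part of the set. Of 2515 measured X tiles 60 (2.39%) stayed at 30 to 70% in all 10 libraries, near the autosomal share of 2.96%. Held in the 5 AID-null libraries were 87 X tiles, and in the 5 wildtype libraries 138, while on autosomes the counts were 4971 and 8714. Sex and genotype label cannot be told apart here, and the number of X chromosomes per cell may differ between the labels. The X counts are therefore a description and are not read as a difference between genotypes.

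Promoters of Peg12 and Mkrn3, neighbouring imprinted genes of chromosome 7, had 22.6 to 34.6% in fibroblasts and at most 1.75% in clones. The Peg12 window had 34.6% in AID-null and 22.6% in wildtype fibroblasts, 2.24% and 2.60% at 3 weeks, and 0.111 to 1.07% in AID-null and 0.226 to 0.692% in wildtype clones. The Mkrn3 window had 27.9% in AID-null and 29.0% in wildtype fibroblasts, 10.4% and 5.87% at 3 weeks, and 0.273 to 0.755% in AID-null and 0.0470 to 1.75% in wildtype clones.

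Other promoters that were intermediate in both fibroblast libraries and low in clones included that of Boll, a gene of the germ line. The Boll window had 57.1% in AID-null and 67.2% in wildtype fibroblasts, 22.8% and 20.4% at 3 weeks, and 10.9 to 18.4% in AID-null and 15.4 to 17.1% in wildtype clones. The Oxgr1 window moved the other way, with 41.9% in AID-null and 56.03% in wildtype fibroblasts, 49.1% and 46.9% at 3 weeks, and 68.6 to 91.7% in AID-null and 77.4 to 94.0% in wildtype clones. These genes were chosen after their values were seen.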
